A study of Mus musculus with 8 samples.

Results

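Among 8 RNA-seq libraries of mouse cortical neurons, the libraries labelled KO replicate 1 and WT replicate 1, here KO1 and WT1, lay apart from the other 6 and close to each other. The members were therefore 2 of 8 libraries, 1 from each genotype, and the 6 others (KO2 to KO4 and WT2 to WT4) served as the comparison. The pair was selected on the counts themselves, by the scores of the libraries on the first principal component, so every difference between the pair and the other 6 below is a description without a test. Nothing in the labels says whether KO1 and WT1 were prepared together.

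KO neurons carried a constitutive knockout of Nuak1, a kinase of the AMPK-related family, and WT neurons did not, both on a C57Bl/6JRj background. All cultures were made from mid-gestation embryos and kept for 5 days in vitro in a serum-free medium. Each genotype had 4 libraries of poly-A RNA, stated to come from 4 animals per condition, and the cell type label was neurons from cortex or hippocampus. Both KO1 and WT1 were sequenced in lane A, as were KO4 and WT3, and the other 4 libraries were in lane B. The strain label was BJ for KO1 as for KO2 and KO3, and BO for WT1 alone, so that for WT1 the strain label and the library cannot be told apart. The label was BK for KO4, WT2 and WT4 and BQ for WT3, so BK alone was found in both genotypes.

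The values were read counts per gene, scaled to CPM, that is, per 1e6 counts of the library, with trimmed mean of M-values (TMM) factors. The pair held 34795160 (KO1) and 31247078 counts (WT1), against 34594214 to 67155004 in the other 6. The first component explained 51.9% of the variance of the 500 most variable genes and placed KO1 at -27.6 and WT1 at -28.4, with the other 6 between 0.07 (KO2) and 22.6 (WT3). Between KO1 and WT1, 600 genes differed by 2-fold or more, compared with 206 to 1250 genes between any 2 of the other 6 and 1428 to 3389 genes between a library of the pair and one of the others. Nuak1 followed the genotype labels within the pair, with 2.46 CPM in KO1 and 52.9 CPM in WT1.

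**Figure D1:**
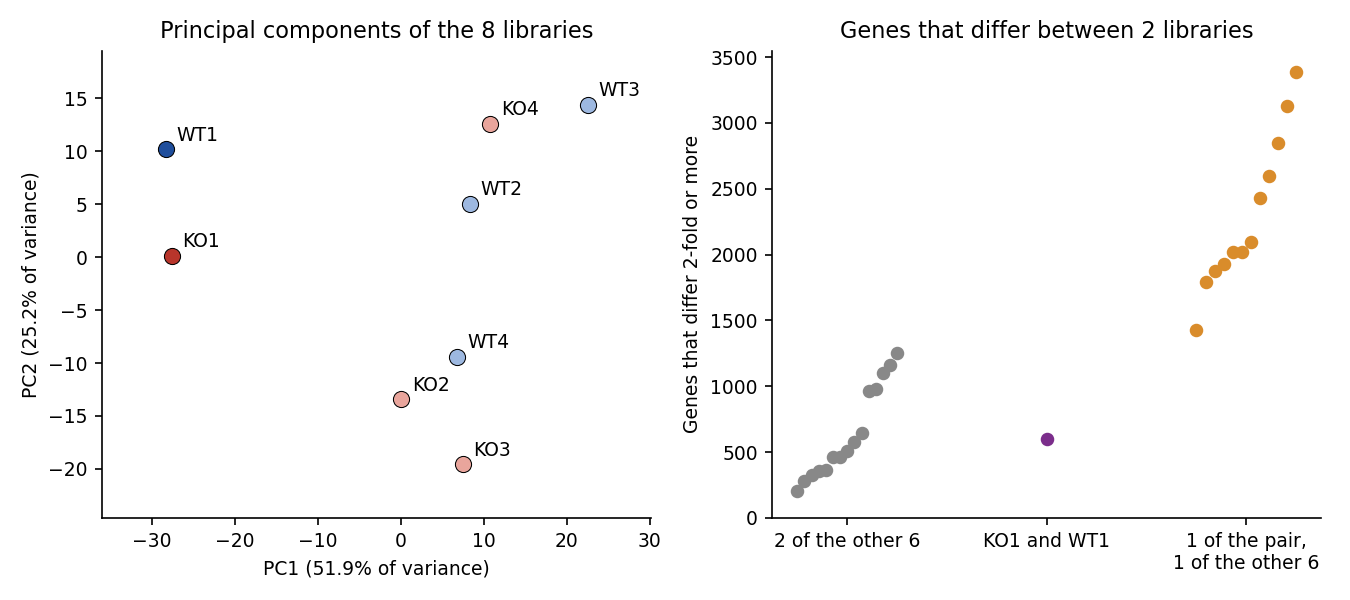
Left, scores of the 8 libraries on the first 2 principal components of the 500 most variable genes, with the share of variance on each axis. Right, the number of genes that differed 2-fold or more between 2 libraries, for pairs among the other 6 (grey), for KO1 and WT1 (600 genes, purple) and for 1 library of the pair with 1 of the other 6 (orange, 1428 to 3389 genes).

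Dissociated embryonic cortex gives cultures in which post-mitotic glutamatergic neurons are joined by GABAergic interneurons, dividing progenitors and cells of the astrocyte and oligodendrocyte lineages. Such neurons respond to lack of amino acids, oxidants or misfolded protein through the integrated stress response, in which the transcription factor ATF4 turns on genes for amino acid uptake and synthesis, and to synaptic activity through immediate early genes. A library made from poly-A RNA reports these states together with its own recovery of transcripts, which depends on their base composition and length.

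Both libraries of the pair lay outside the range of the other 6 in many genes, and mostly below it. A gene is called set apart here when both KO1 and WT1 were above, or both below, all 6 others and the fitted difference was 2-fold or more. Of 16272 genes tested, 1622 were set apart as lower (9.97%) and 69 as higher (0.424%), while at any fold 4717 genes lay below the 6 (29%) and 3613 above (22.2%). These 4 shares are the background for every list below. The count of higher genes moved with the libraries used: it was 282 without KO1, 144 without WT1, 113 without KO2, 110 without KO3 and 126 without both KO3 and WT4. It moved with the filter too, and without a filter on low counts 566 genes were higher and 2056 lower. The 69 higher genes were mostly scarce, with a median of 0.649 CPM, and 38 of them had a gene symbol. Of 13424 protein-coding genes, 1489 were set apart as lower and 25 as higher.

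Most genes that were lower in KO1 were lower in WT1 too, which is again a description. Compared with the other 3 libraries of its own genotype, KO1 was at least 2-fold lower and below all 3 in 1582 genes and WT1 in 1833, and 1218 genes were shared (77% of the KO list and 66.4% of the WT list). In the other direction the lists were shorter, with 132 genes in KO1, 294 in WT1 and 27 shared (20.5% and 9.18%). Across the 16272 genes the KO1 and WT1 differences correlated with r = 0.80, genes being no independent replicates, and 84.65% had the same sign. No gene was at least 2-fold higher in KO1 and lower in WT1, and 5 were the reverse.

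**Figure D2:**
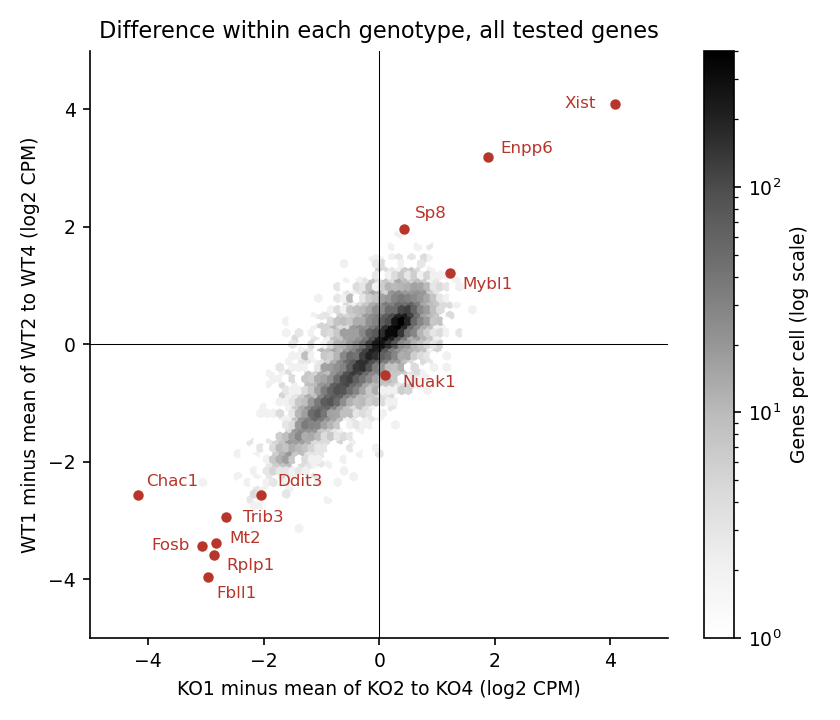
Difference of KO1 from the mean of KO2 to KO4 (horizontal axis) against that of WT1 from the mean of WT2 to WT4 (vertical axis), in log2 CPM, for all 16272 tested genes, shaded by the number of genes per cell on a log scale. Genes in red are named examples, which apart from Nuak1 were chosen for differing in both genotypes, and Nuak1 lies near the centre because each library was compared within its own genotype.

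The difference moved with the GC content of the transcripts. Each level here is the log2 level of a gene relative to its mean over the 8 libraries, pair included. These relative levels fell with GC content in the pair, with r of -0.66 in KO1 and -0.69 in WT1. In the other 6 the correlation was positive (0.17 to 0.48). Per 10 percentage points of GC the slope was -0.50 in KO1, -0.57 in WT1 and 0.06 to 0.28 in the others. Because slopes around a shared mean cancel over the 8 libraries, the positive sign in the other 6 follows on average from the negative slopes. Only the gap between the pair and the others is described here. Among the decile of genes with the lowest GC content (up to 41.7%) the median difference was 0.39 and 63.3% lay above the range of the 6. Among the decile with the highest (58.1% and over) the median was -1.10, 83.1% lay below the range and 807 of 1446 genes (55.8%) were set apart as lower. The mean GC content of all counts was 47.3% and 47.4% in the pair and 48.8% to 49.3% in the others. Length moved with the difference less steeply, from -0.22 in the shortest decile to 0.18 in the longest.

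**Figure D3:**
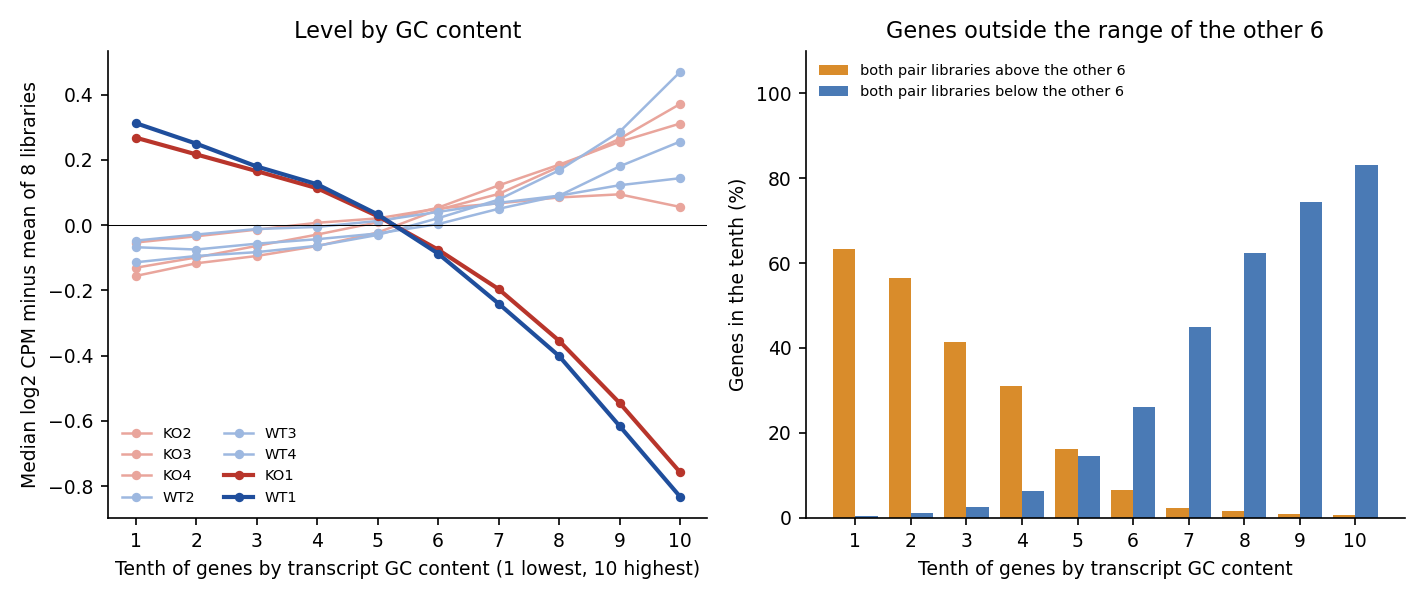
Left, median log2 CPM of each library minus the mean of the 8 libraries in deciles of the 14453 genes with a transcript GC content, from the lowest GC (1) to the highest (10). Right, the percentage of genes in each decile for which both libraries of the pair lay above (orange, 63.3% in decile 1) or below (blue, 83.1% in decile 10) all 6 others.

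The composition can be read in the coding sequences of named genes at both ends. The first 120 bases of the coding sequence are given for 3 genes that were lower and 2 that were higher in the pair, with G and C in capitals, from the GENCODE mouse M1 transcripts. Fbll1 encodes a fibrillarin-like protein, Lrrc4b a synaptic adhesion molecule and Rnf208 a ring finger protein. Mybl1 is a transcription factor of the Myb family and Bub1 a kinase of the mitotic checkpoint. G and C made up 59.2% to 74.2% of the bases shown for the lower genes and 41.7% and 42.5% for the higher ones.
Fbll1: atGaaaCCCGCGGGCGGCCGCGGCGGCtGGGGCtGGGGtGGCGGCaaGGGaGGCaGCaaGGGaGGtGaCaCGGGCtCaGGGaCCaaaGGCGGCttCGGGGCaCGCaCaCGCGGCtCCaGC
Lrrc4b: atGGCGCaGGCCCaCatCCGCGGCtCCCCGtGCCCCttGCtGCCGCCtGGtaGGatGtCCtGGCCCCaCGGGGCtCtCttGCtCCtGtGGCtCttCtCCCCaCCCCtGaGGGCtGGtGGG
Rnf208: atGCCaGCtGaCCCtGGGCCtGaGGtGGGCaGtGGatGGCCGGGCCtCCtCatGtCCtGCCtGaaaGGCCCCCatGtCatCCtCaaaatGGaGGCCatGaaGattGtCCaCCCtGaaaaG
Mybl1: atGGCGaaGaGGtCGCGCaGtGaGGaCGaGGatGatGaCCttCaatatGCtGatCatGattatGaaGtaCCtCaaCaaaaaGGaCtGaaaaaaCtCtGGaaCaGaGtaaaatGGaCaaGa
Bub1: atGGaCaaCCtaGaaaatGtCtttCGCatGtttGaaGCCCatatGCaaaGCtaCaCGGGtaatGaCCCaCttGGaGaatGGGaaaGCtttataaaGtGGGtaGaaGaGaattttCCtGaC

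On GRCm38 the lower genes lie at chr11:35797380-35798884 (Fbll1), chr7:44442487-44463351 (Lrrc4b) and chr2:25242929-25244261 (Rnf208). The higher genes lie at chr1:9667407-9700439 (Mybl1) and chr2:127800197-127831859 (Bub1). Fbll1 stood at 0.658 CPM in KO1 and 0.427 CPM in WT1, and in the other 6 at 3.34 (lowest), 6.20 (median) and 13.0 CPM (highest), so that the groups did not overlap and the fitted log2 difference was -3.63. Lrrc4b stood at 9.41 and 9.85 CPM in the pair and between 37.0 and 101 CPM in the others, a log2 difference of -2.89.

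Because GC content ran through the whole comparison, most of the differences below are given also after the level of every library was smoothed on transcript GC content, a step chosen after the pattern had been seen. The adjusted value compares a gene with genes of like GC content in the same library. A gene with an adjusted value between -1 and 1 was not set apart after adjustment, and a gene whose groups overlapped after the adjustment is named as such. Of 14453 genes with a GC value, 237 were then set apart as lower (1.64%) and 140 as higher (0.969%), and at any fold 2349 lay below (16.3%) and 2291 above (15.9%). Of the 237 lower genes 218 had also been set apart without the adjustment, but of the 140 higher genes only 14. Fbll1 kept an adjusted log2 difference of -2.42 and Lrrc4b of -1.68. The adjustment could be judged for 95.5% of the lower genes, which had a GC value, but is void for the 69 higher genes as a set, of which 55.1% had one. Adjusted values of single higher genes below describe those genes alone. Which part of the difference arose in the cells and which in library preparation cannot be told apart in these data.

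**Figure D4:**
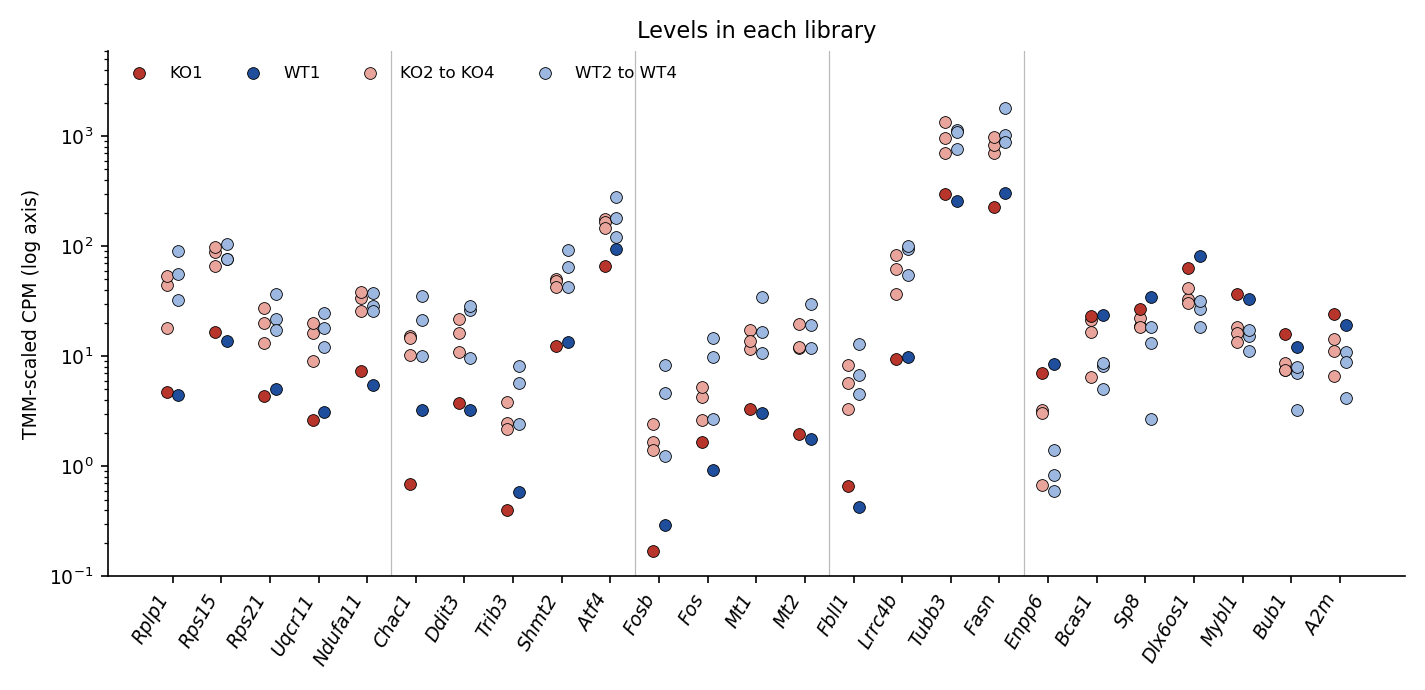
TMM-scaled CPM on a log axis for named genes in every library, KO in red and WT in blue, with KO1 and WT1 in dark and the other 6 in light colours. Vertical lines separate ribosomal and respiratory chain genes, ATF4 targets, immediate early genes with metallothioneins, other lower genes and higher genes. Dark points lie below all light points in the groups up to Fasn and above them from Enpp6 on.

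Targets of ATF4 were low in the pair. Of 29 tested genes on this list, 16 were set apart as lower (55.2%, against 9.97% of all tested genes) and none as higher, and 19 lay below the range of the 6 at any fold, with a median log2 difference of -1.17 against -0.02 for all tested genes. After the GC adjustment the median was -0.76, with 9 genes set apart as lower and 16 below the range. The summed level of the list was 1884 CPM in KO1 and 2528 CPM in WT1, and 2728 to 5260 CPM in the other 6. In bulk RNA, fewer cells that express a gene and less RNA per cell cannot be told apart, here and for every list below.

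Regulators of this response were among them. Atf4 itself, the transcription factor that drives the others, stood at 66.5 CPM in KO1 and 93.9 in WT1, against 123 (lowest), 171 (median) and 278 CPM (highest) in the other 6, a log2 difference of -1.17 and -0.72 after adjustment, when the groups overlapped. Ddit3, which encodes the pro-apoptotic factor CHOP, stood at 3.75 and 3.25 CPM, against 9.68, 19.1 and 28.7 CPM. Its log2 difference was -2.41 and became -2.61 after adjustment, its transcript having a GC content of 45.6%. Trib3, a pseudokinase induced by ATF4 and CHOP, stood at 0.401 and 0.591 CPM, against 2.21, 3.17 and 8.24 CPM (log2 difference -3.02, adjusted -2.08). Before adjustment no library of the pair reached the lowest of the other 6 in any of these genes, and in Atf4 and Trib3 the highest level was that of WT3.

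Chac1, Shmt2, Eif4ebp1 and Nupr1 of this list were also set apart as lower, by differing amounts. Chac1, which degrades glutathione, differed within the pair, with 0.687 CPM in KO1 and 3.28 CPM in WT1, against 10.1, 15.1 and 35.3 CPM in the others (log2 difference -3.31, adjusted -2.41). The mitochondrial one-carbon enzyme Shmt2 stood at 12.5 and 13.6 CPM, against 42.5, 49.7 and 92.9 CPM (log2 difference -2.11, adjusted -1.23). The translational repressor gene Eif4ebp1 stood at 0.944 and 2.59 CPM, against 4.37, 8.58 and 21.6 CPM (log2 difference -2.54, adjusted -1.68), and after adjustment the groups overlapped. The stress-induced regulator Nupr1 was scarce, at 0.172 and 0.394 CPM against 0.772, 1.39 and 2.55 CPM (log2 difference -2.40, adjusted -2.35). It rested on 6 counts in KO1 and 12 in WT1.

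Other members varied. The serine synthesis genes Phgdh and Psph were set apart (log2 differences -1.60 and -1.33, adjusted -0.75 and -1.10), and Psat1 lay below the 6 at less than 2-fold (-0.79, adjusted -0.85). Among amino acid transporters Slc7a5 and its partner Slc3a2 were set apart (-1.37 and -1.12), and after adjustment they were not (-0.62, overlapping, and -0.76). Slc7a11, the cystine transporter, overlapped with the 6 (8.21 and 12.3 CPM against 10.95 to 28.3 CPM), and after adjustment it was set apart as lower (-1.20). Asparagine synthetase, Asns, also overlapped, at 116 and 151 CPM against 144 to 315 CPM, and lay below the range after adjustment (-0.65). Vldlr, a lipoprotein receptor, was the only list member with a positive difference (0.32), and it overlapped with the 6 (275 and 351 CPM against 217 to 280 CPM).

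Promoters are shown for 3 genes of the list that were set apart both before and after the GC adjustment. The 250 bases before the start of transcription are given on the strand of the gene, from RefSeq on GRCm38.p6: Chac1 at chr2:119350992-119351241 (plus strand), Ddit3 at chr10:127290543-127290792 (plus strand) and Nupr1 at chr7:126625471-126625720 (minus strand). Capitals mark TGATGNAA, the composite element for CHOP and ATF factors, searched on both strands.
Chac1: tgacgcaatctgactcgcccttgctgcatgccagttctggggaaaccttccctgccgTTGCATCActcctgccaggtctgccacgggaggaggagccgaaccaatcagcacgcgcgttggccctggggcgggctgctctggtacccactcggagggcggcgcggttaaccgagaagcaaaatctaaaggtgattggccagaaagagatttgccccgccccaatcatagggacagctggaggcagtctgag
Ddit3: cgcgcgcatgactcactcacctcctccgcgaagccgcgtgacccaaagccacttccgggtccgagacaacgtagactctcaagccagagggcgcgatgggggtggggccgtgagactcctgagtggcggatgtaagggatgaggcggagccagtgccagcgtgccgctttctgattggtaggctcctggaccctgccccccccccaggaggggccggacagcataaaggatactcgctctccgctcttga
Nupr1: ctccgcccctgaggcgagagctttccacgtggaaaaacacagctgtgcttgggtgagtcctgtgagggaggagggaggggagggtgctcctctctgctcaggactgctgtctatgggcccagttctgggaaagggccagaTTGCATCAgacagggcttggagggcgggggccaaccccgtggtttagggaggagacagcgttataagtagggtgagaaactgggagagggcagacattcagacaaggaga

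The motif began 193 bases before the start in Chac1 and 110 bases before it in Nupr1, in both on the opposite strand, and these letters did not occur in the window of Ddit3. In windows from 250 bases before to 50 after the start, 8 of 24 genes on the list with a promoter sequence held it (33.3%), and 4.51% of 27025 genes in the whole table did. By promoters these shares were 27.6% of 29 and 3.97% of 32851. A match describes the sequence only.

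The chaperone branch of the endoplasmic reticulum stress response showed no such shift. Of 18 tested genes of the unfolded protein response, 1 was set apart as lower, 6 lay above the range of the 6 and 4 below, with a median of 0.28. The gene set apart was Herpud1, a component of protein degradation at the endoplasmic reticulum, at 26.0 and 31.96 CPM against 42.4, 64.6 and 87.4 CPM (log2 difference -1.17, adjusted -0.86). The chaperone Hspa5 stood at 445 and 467 CPM and overlapped with the 6 (314 to 458 CPM). Calr, which encodes calreticulin, stood at 497 and 492 CPM, above 291 to 451 CPM.

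Immediate early genes were low as well. Of 26 tested, 13 were set apart as lower (50%) and none as higher, and 18 lay below the range, with a median of -0.98 that shrank to -0.29 after the GC adjustment (8 lower, 1 higher). Fosb, a subunit of the AP-1 factor, stood at 0.172 and 0.296 CPM in the pair against 1.23, 2.04 and 8.39 CPM in the others (log2 difference -3.74, adjusted -2.999). Its level in the pair rested on 6 counts in KO1 and 9 in WT1, so the size of the difference is imprecise. Fos stood at 1.66 and 0.920 CPM against 2.66, 4.79 and 14.7 CPM (log2 difference -2.15, adjusted -1.94). The groups did not overlap in either gene. Egr1, a zinc finger factor induced by activity, stood at 6.12 and 5.16 CPM against 9.62, 15.9 and 33.6 CPM, with an adjusted difference of -1.29. Junb rested on 3 counts in KO1 and 1 in WT1, and on 4 to 68 counts in the others.

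Not all early genes took part. Nr4a3, an orphan nuclear receptor, stood at 144 and 161 CPM within the range of the 6 (132 to 201 CPM). Fosl2 overlapped as well (136 and 141 CPM against 131 to 186 CPM). Among 14 late activity-regulated genes 3 were set apart as lower, with a median of -0.29, and Bdnf, a neurotrophin, stood at 3.58 and 3.61 CPM within 1.66 to 15.7 CPM.

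Metallothioneins, the small proteins that bind zinc and copper, were low in both libraries. Mt2 stood at 1.97 CPM in KO1 and 1.77 in WT1, against 11.9, 15.7 and 30.1 CPM in the other 6 (log2 difference -3.19, adjusted -2.37). Mt1 stood at 3.29 and 3.09 CPM, against 10.7, 15.3 and 34.9 CPM (log2 difference -2.42, adjusted -1.91). Mt3, the form of brain, stood at 12.8 and 12.4 CPM, against 37.9, 42.9 and 57.4 CPM (log2 difference -1.82, adjusted -0.66). These 3 genes were set apart, and the zinc transporters Slc30a1 and Slc39a10 on the same list of 5 overlapped with the 6.

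Genes of the cytosolic ribosome were spread, with some far below the 6 and others above. Of 77 tested cytosolic ribosomal protein genes 24 were set apart as lower (31.2%), 34 lay below the range and 12 above, with a median of -0.26 that stayed at -0.25 after the GC adjustment and was -0.11 after adjustment for GC content and length. Rplp1, a protein of the ribosomal stalk, stood at 4.78 and 4.50 CPM, against 18.2, 49.1 and 91.2 CPM (log2 difference -3.36, adjusted -2.47). Rps21 stood at 4.35 and 5.03 CPM, against 13.3, 21.0 and 37.0 CPM, and its difference of -2.28 became -2.15. Rpl36 rested on 0 counts in KO1 and 1 in WT1, against 4 to 27 counts. Many ribosomal protein genes have near-identical pseudogenes and only uniquely aligned reads were counted, so their levels are uncertain.

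Nuclear genes of oxidative phosphorylation showed the same mixture. Of 74 tested, 16 were set apart as lower (21.6%), 37 lay below the range and 11 above, with a median of -0.25 (adjusted -0.07, 10 lower). Uqcr11, a small subunit of complex III, stood at 2.66 and 3.12 CPM, against 9.04, 17.3 and 25.003 CPM (log2 difference -2.54, adjusted -1.44). Uqcrq, another subunit of complex III, stood at 3.98 and 3.58 CPM, against 8.48, 16.1 and 27.8 CPM, and kept -2.06 of a difference of -2.13. Protein-coding genes of the mitochondrial genome went the other way: 6 of the 7 tested lay above the range of the 6 and none was set apart, with a median of 0.75 (adjusted 0.33, 1 above).

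The largest difference in CPM of any tested gene was that of mt-Cytb, the cytochrome b gene. It stood at 16409 CPM in KO1 and 15176 in WT1, against 6468 (lowest), 9559 (median) and 11709 CPM (highest). Together the mitochondrial genome took 5.88% and 5.46% of counts in the pair and 2.33% to 4.12% in the others, and the 10 most abundant genes 7.76% and 7.48% against 4.10% to 6.001%. The 7 mitochondrial transcripts tested have a mean GC content of 37.0%.

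Tubulins and lipid synthesis held abundant genes that were low. Tubb3, the neuronal beta-tubulin, stood at 298 and 259 CPM in the pair, against 705, 1024 and 1348 CPM in the others (log2 difference -1.85, adjusted -0.92). Tubb2b stood at 678 and 748 CPM, against 1321, 1578 and 1915 CPM (log2 difference -1.18, adjusted -0.87). Fasn, fatty acid synthase, stood at 226 and 304 CPM, against 710, 940 and 1797 CPM (log2 difference -1.96, adjusted -1.08). Of 12 fatty acid synthesis genes 2 were set apart as lower, 4 lay below the range (33.3%, beside 29% of all genes) and none above. Their median was -0.13 (adjusted -0.09). Of 20 young neuron genes 3 were set apart, all of them beta-tubulins, 8 lay below the range (40%) and 2 above, with a median of -0.26 (adjusted -0.04). One of those above was Dcx, a microtubule-associated protein of migrating neurons (1989 and 2004 CPM against 1408 to 1860 CPM), which overlapped after adjustment.

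Metabolic lists had medians below 0 that shrank or changed little under the adjustment. For 20 glycolysis genes it was -0.48 (4 lower, 12 below) and -0.12 after adjustment. For 8 genes of cholesterol export it was -0.74 (3 lower) and -0.08 after adjustment, with Apoe, the lipid carrier of astrocytes, at 103 and 82.1 CPM against 191, 266 and 379 CPM (log2 difference -1.61, adjusted -0.56 and overlapping). For 23 genes of cholesterol synthesis it was -0.09 (4 lower) and -0.15 after adjustment, and Mvd, an enzyme of the mevalonate pathway, stood at 17.9 and 28.8 CPM against 59.7, 90.7 and 139 CPM (log2 difference -2.001, adjusted -0.94).

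Several genes with the largest differences in both genotypes belonged to no list. Ckb, the brain creatine kinase, stood at 17.3 and 14.6 CPM, against 51.6, 106 and 169 CPM (log2 difference -2.68, adjusted -1.58). Timm13, a chaperone of mitochondrial protein import, stood at 3.72 and 2.53 CPM, against 13.6, 18.8 and 30.1 CPM (log2 difference -2.69, adjusted -1.72). Rtn4r, the Nogo receptor of axons, stood at 4.78 and 4.598 CPM, against 16.7, 27.4 and 34.7 CPM (log2 difference -2.51, adjusted -1.33). Each of the 15 lower genes named by this measure, which also include Rnf208, Ttc9b and Cep131, remained set apart as lower after the GC adjustment.

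Synaptic and channel lists varied. Of 25 synaptic vesicle genes 7 lay below the range (28%, beside 29% of all genes) and 4 above, and 2 were set apart as lower (Stx1a and Rab3a; 8%, beside 9.97%), with a median of -0.12 (adjusted 0.17). Of 32 glutamate receptor and postsynaptic density genes 13 lay below (40.6%) and 5 above, and 4 were set apart as lower (Dlgap3, Nrgn, Dlg4 and Lrrtm1; 12.5%), with a median of 0.11 (adjusted 0.07). None of these 4 was set apart after adjustment. Stx1a, a syntaxin of vesicle fusion, stood at 57.7 and 54.1 CPM against 134, 171 and 209 CPM, and its log2 difference of -1.61 became -0.68. Among 29 voltage-gated channel genes none was set apart and 7 lay above the range, with a median of 0.30 (adjusted 0.33, 13 above). Among 15 GABA-A and glycine receptor genes 5 lay above and 1 below, with a median of 0.35 that fell to 0.10.

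**Figure D5:**
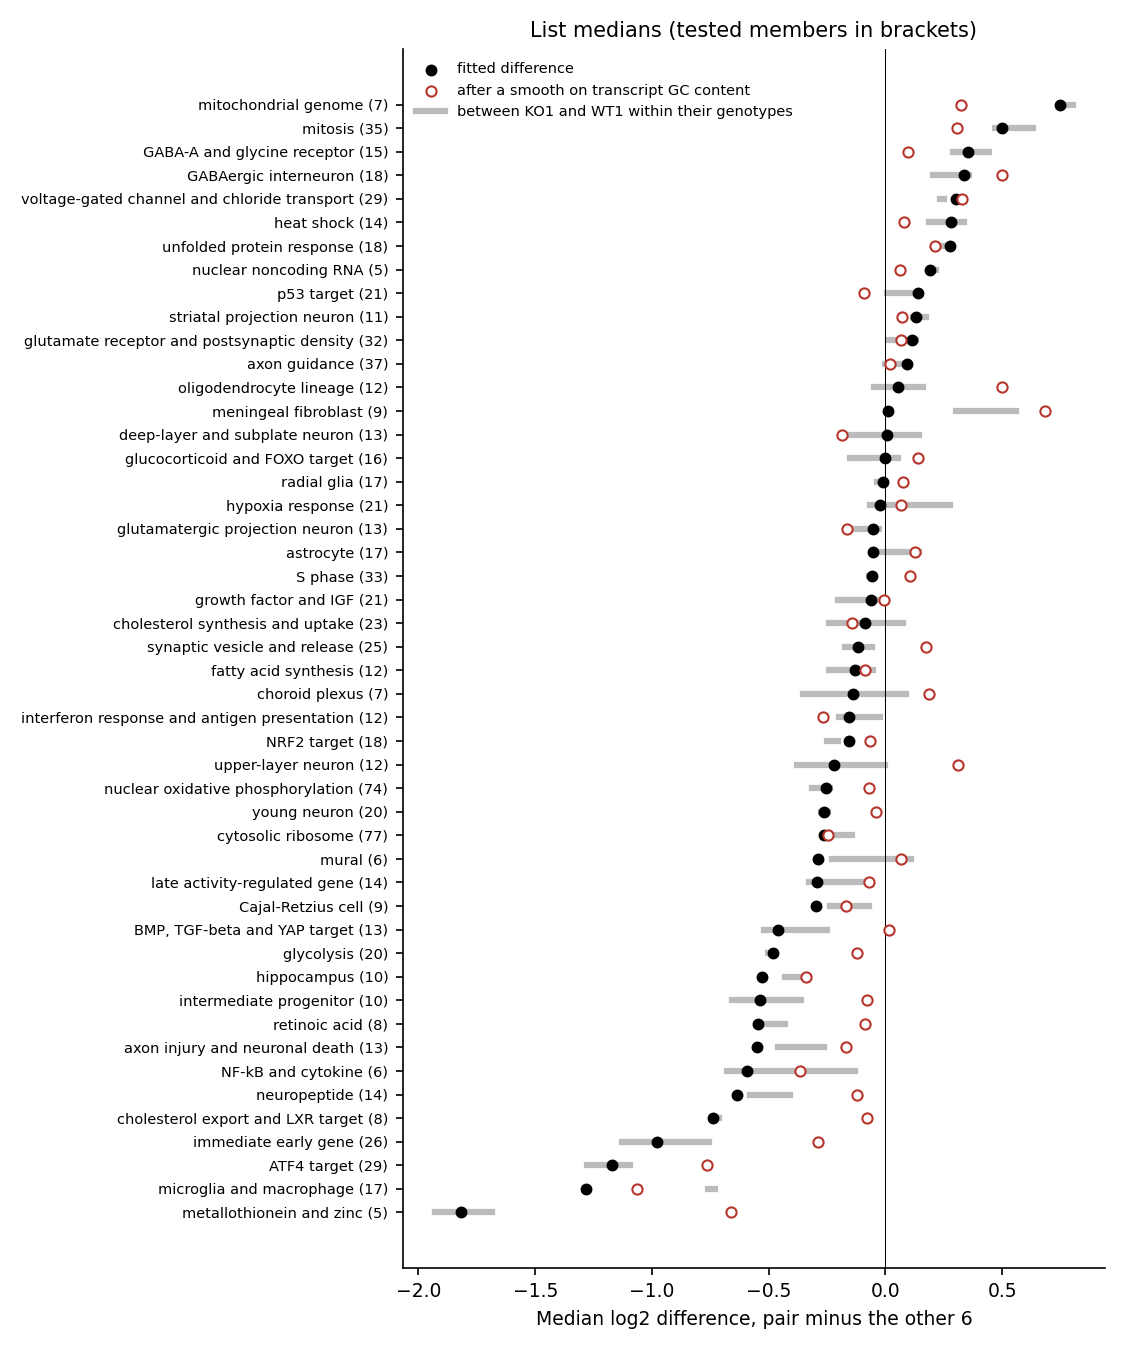
Median log2 difference of the pair from the other 6 for each list with 5 or more tested members (in brackets), as fitted (black) and after a smooth on transcript GC content (open red). Grey bars run between the medians of KO1 and of WT1, each taken within its genotype. Metallothionein, microglia, ATF4 target and immediate early genes lie lowest and mitochondrial genome and mitosis genes highest.

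Genes set apart as higher with a symbol and a mean of at least 5 CPM numbered 11, and Bcas1 among them belongs to oligodendrocyte differentiation. Of 12 tested oligodendrocyte lineage genes 3 were set apart as higher and 2 as lower, 4 lay above and 4 below the range, and the median was 0.05. After the GC adjustment it was 0.50, with 7 above and none below. The summed level of the list was 731 CPM in both libraries of the pair and 573 to 694 CPM in the other 6.

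Genes of this lineage differed in size of difference. Enpp6, an enzyme of newly formed oligodendrocytes, stood at 7.07 CPM in KO1 and 8.44 in WT1, against 0.592, 1.12 and 3.23 CPM in the others, a 5.49-fold difference (log2 2.46, adjusted 2.23). Bcas1, a marker of early myelinating cells, stood at 23.3 and 23.98 CPM, against 5.08, 8.49 and 21.2 CPM (log2 difference 1.22, adjusted 1.35), and the library next below the pair was KO2. For Enpp6, leaving out WT1 gave a log2 difference of 1.60 and leaving out KO1 3.19.

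Other genes of the lineage varied. Pdgfra, the receptor of oligodendrocyte precursors, was above the 6 at less than 2-fold (430 and 439 CPM against 247 to 365 CPM). Sox10, a transcription factor of the lineage, stood at 9.04 and 8.70 CPM, against 16.9, 21.2 and 21.6 CPM, and its log2 difference of -1.21 became -0.07 after adjustment, with overlap, its transcript having a GC content of 61.7%. Mbp, a myelin protein, overlapped with the others (15.6 and 19.5 CPM against 15.1 to 28.1 CPM).

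Interneuron markers summed to 663 CPM in KO1 and 578 CPM in WT1, above 387 to 559 CPM in the other 6. Of 18 tested, 2 were set apart as higher and 1 as lower, with 4 above the range, a median of 0.34 and 0.50 after adjustment (5 higher, none lower). Sp8, a zinc finger factor of interneurons from the caudal and lateral eminences, stood at 26.9 CPM in KO1 and 34.7 in WT1, against 2.72, 18.7 and 22.2 CPM in the others, the lowest being WT3. Its log2 difference was 1.06 (adjusted 1.09), 0.43 when WT1 was left out and 0.78 when WT3 was. Dlx6os1, a non-coding RNA of the Dlx locus that was not among the 18 markers, stood at 63.8 and 82.2 CPM, against 18.5, 31.5 and 41.7 CPM (log2 difference 1.29, adjusted 0.90).

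The transmitter genes of these cells differed in direction. Gad2, which makes GABA, stood at 56.7 and 41.4 CPM, above 19.7 to 38.4 CPM (log2 difference 0.80, adjusted 0.53 and overlapping), whereas the vesicular GABA transporter Slc32a1 stood at 6.41 and 5.45 CPM, below 8.25 to 23.1 CPM. The log2 difference of Slc32a1 was -1.15 and became 0.02 after adjustment, with overlap (GC content 61.9%). The somatostatin gene Sst overlapped, at 21.6 and 6.41 CPM against 16.8 to 69.4 CPM.

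Genes of mitosis lay high at small folds. Of 35 tested, 19 lay above the range of the 6, 1 below, and only Bub1 was set apart (16.1 and 12.2 CPM against 3.26, 7.46 and 8.77 CPM, log2 difference 1.02, adjusted 0.67). The median was 0.50 and 0.31 after adjustment, when 11 lay above. Mki67, the proliferation antigen, stood at 109 and 88.1 CPM, against 26.0, 63.7 and 69.5 CPM (log2 difference 0.76, adjusted 0.60). Top2a, the topoisomerase of dividing cells, stood at 118 and 86.5 CPM, against 25.5, 63.2 and 66.9 CPM (log2 difference 0.84, adjusted 0.56). In both Mki67 and Top2a the lowest library was WT3. Of 33 S phase genes 9 lay above and 5 below, with a median of -0.06 that became 0.11 after adjustment (5 above, 2 below).

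Of the other genes set apart as higher, Mybl1 stood at 37.2 and 33.5 CPM against 11.1, 15.8 and 18.3 CPM (log2 difference 1.21, adjusted 0.78), and Scrg1 at 20.2 and 13.0 CPM against 3.18, 7.44 and 12.8 CPM (log2 difference 1.06, adjusted 0.98 and overlapping). A2m, a protease inhibitor of plasma also made by glia, stood at 24.2 and 19.5 CPM against 4.23, 9.98 and 14.5 CPM (log2 difference 1.22, adjusted 1.23). Xist, the RNA of the inactive X chromosome, stood at 4309 CPM in KO1 and 5146 in WT1, at 2747 to 3633 CPM in KO2, KO4, WT2 and WT3, and at 1.79 and 2.72 CPM in KO3 and WT4. KO3 and WT4 also carried the Y-linked Ddx3y (78.9 and 84.5 CPM, 0 counts in the pair), so Xist was set apart in part through them. Without KO3 and WT4 its log2 difference was 0.61, below 2-fold.

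Marker lists of other cell types varied. The labelled cells are neurons, and glutamatergic projection neuron markers summed to 2381 and 2362 CPM in the pair and 1914 to 2866 CPM in the others, with 1 of 13 set apart. Radial glia markers had 1 of 17 set apart (Hes5, lower) and a median of -0.01, and astrocyte markers 1 of 17 (Id3, lower) and a median of -0.06. Microglia and macrophage markers summed to 41.0 and 34.8 CPM, within 23.8 to 113 CPM, and their median of -1.28 came with only C1qc outside the range of the 6. The sums of some lists lay outside the range. Ependymal markers summed to 1.97 and 1.91 CPM against 3.76 to 5.89 CPM, and both genes tested, Foxj1 and Rsph1, lay below the 6 (median -1.30, adjusted -0.56). Choroid plexus markers summed to 50.5 and 59.9 CPM against 30.8 to 39.6 CPM, with 1 of 7 genes above and 1 below the range, and most of the sum was Enpp2 (44.1 and 51.8 CPM against 20.3 to 32.4 CPM). Upper-layer neuron markers summed to 791 and 758 CPM against 801 to 1152 CPM, with 1 of 12 set apart as lower and a median of -0.22 that became 0.31.

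Vascular and hippocampal markers were low or overlapped. Only 4 of 15 endothelial markers were tested, with a sum of 3.78 and 3.58 CPM in the pair and 5.24 to 6.42 CPM in the others. Of these only Egfl7 lay below the range, and the median of -0.59 became -0.19 after adjustment, when none lay below. No erythroid marker passed the filter. Hippocampal markers, relevant because the label allows either tissue, summed to 183 and 236 CPM, within 179 to 280 CPM. The largest part of this sum was Zbtb20 (93.7 and 118 CPM), which overlapped with the 6. Of 10 hippocampal markers tested 3 lay below the range and none above, and 1 was set apart as lower (Fibcd1). Their median was -0.53 and -0.34 after adjustment.

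The pair also stood apart from the 2 other libraries of its own lane. Against KO4 and WT3 of the same lane alone, 584 genes were set apart as higher and 1991 as lower, of which 64 and 1545 were among those set apart in the whole comparison, and against the 4 libraries of lane B the counts were 68 and 1436. A range of fewer libraries is easier to leave. In lane A alone the median of ATF4 targets was -1.24, that of immediate early genes -1.35 and that of mitosis genes 0.88, and against lane B they were -1.05, -0.78 and 0.38. Of the 6, WT3 was lowest in Mki67 (26.0 CPM) and Top2a (25.5 CPM) and highest in Atf4, Chac1, Fosb and Fos. Lane and the state of WT3 therefore cannot be told apart in these medians. For microglia markers the sign turned, at 0.49 in lane A and -1.76 against lane B.

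The genotype difference was then tested with the pair as a term, because the genotype contrast was not used to choose the pair. Nuak1 (chr10:84370900-84440668) stood at 1.92 to 2.64 CPM in the 4 KO libraries, at 52.9 CPM in WT1 and at 71.7 to 82.4 CPM in WT2 to WT4. In edgeR's quasi-likelihood test its log2 change from WT to KO was -4.91 with a standard error of 0.15 and a Benjamini-Hochberg adjusted p of 5.89e-07. Without the pair it was -5.05, with a standard error of 0.14 and an adjusted p of 2.51e-06. All libraries thus matched their genotype labels, the pair included.

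With the pair as a term, 4 of 16272 genes passed an adjusted p of 0.05 (0.0246%), and without the pair 3 of 16579 did (0.0181%), 1304 (8.01%) and 671 (4.05%) having an unadjusted p under 0.05. The same 3 genes passed in both fits: Nuak1, Tdg and Tdg-ps2. Tdg (chr10:82629814-82650799), a thymine DNA glycosylase, changed by -1.81 on the log2 scale with the pair (standard error 0.13, adjusted p of 0.000843) and by -1.92 without it (adjusted p of 0.0042). Without the pair its edgeR adjusted p was 0.067 with a replicate block, 0.0715 without KO2, 0.0618 without KO3 and 0.0693 without WT2, so its call there was lost in each of these. Its processed copy Tdg-ps2 had 169 to 392 counts in KO and 0 in every WT library, and reads of the near-identical copies cannot be assigned with certainty. The 4th gene, ENSMUSG00000094622, rested on 5 to 10 counts in KO and 34 to 79 in WT, and its adjusted p was 0.00976 with the pair and 0.0506 without it. With the pair as a term it was not called under a replicate block or without KO2, KO3, WT1 or WT2 (edgeR adjusted p of 0.0552 to 0.118).

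Whether the genotype difference within the pair departed from that among the other 6 was tested as an interaction. No gene of 16272 passed (0%) in edgeR or in DESeq2, with 232 and 141 genes at an unadjusted p under 0.05, 1.43% of genes in edgeR. Each library of the pair is alone in its group in this test and is assumed to vary like the others. For Nuak1 the interaction was 0.63 on the log2 scale with a standard error of 0.26 (edgeR adjusted p of 0.9999), the log2 difference of KO1 from WT1 being -4.37. A difference of this kind was not detectable here, which does not show that the genotypes differed equally in the pair and in the other cultures.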

How the data were processed

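Poly-A RNA of 8 cultures was sequenced, and the deposited values were gene counts made by the authors: whole-number reads per Ensembl gene, not normalised. The submitters' processing notes name bcl2fastq 2.17.1.14, cutadapt 1.10, Bowtie2 2.2.8, STAR 2.5.3a and HTSeq 0.6.1p1, with mm10 and Ensembl release 92. Ribosomal reads had been discarded and uniquely aligned reads counted. The library kit keeps strand, and whether counting used it is not given in the sources used here. The labels and the study's methods disagree on instrument and read layout.

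The 32726 identifiers were matched to symbols (23260) and GRCm38 positions (20916) with RefSeq tables, and transcript GC content and length came from GENCODE M1. Genes were kept by filterByExpr on genotype, scaled by TMM and fitted with edgeR 4.0.16 (limma 3.58.1, R 4.3.3) on genotype and pair. Log2 levels used a prior count of 2. The pair was given no test. Genotype with the pair as a term, genotype without the pair and their interaction were tested by the quasi-likelihood F test with Benjamini-Hochberg adjustment. In the GC alternative, added after seeing the data, each library was smoothed on GC content by a spline with 6 degrees of freedom as an offset, and a further one added length. DESeq2 1.42.0 and 1 surrogate variable (sva 3.50.0) were alternatives. The fits were checked on simulated counts.

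The members and all 53 lists were chosen with earlier results of these data known. Genes were named by rule: up to 15 per direction with the largest difference in both genotypes, among those set apart with a symbol and a mean of at least 5 CPM; from each list up to 5 set apart, or else the 2 most abundant; Nuak1, Xist and Ddx3y as checks; and genes past the genotype tests. List members named beyond this rule, Dcx, Mki67 and Top2a among them, were chosen after their values were seen. Library totals ran from 31247078 to 67155004 counts, so that a gene at 1 CPM rests on over 30 counts, and genes with 3 counts or fewer in the pair were given no fold change. Replicates were separate samples by their labels, and p-values measure the spread between these samples. No pair of libraries agreed within sampling noise. An item withheld from the text is not reported here.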

Additional observations from a re-analysis of the deposited data

Results flagged for a closer look

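Within each genotype the 4 libraries were examined, measure by measure, for a highest or lowest library far from the other 3. Of 124 such groups 13 held one, which was KO1 or WT1 in 9 of them. Chance gives about 1 in 20 such groups. The measures overlap: the mitochondrial genome enters both as a share and as a sum, and Ddx3y enters once in each genotype. The count of flagged groups therefore cannot be weighed against that rate. Since the pair was chosen for lying apart, its own share of these is a description. In KO1, the 10 most abundant genes took 7.76% of counts (other KO libraries 5.04% to 5.26%), the mitochondrial genome took 5.88% (3.37% to 3.58%) and summed to 58500 CPM (33800 to 35200 CPM), and mitosis genes summed to 705 CPM (482 to 486 CPM). Also in KO1, radial glia markers summed to 4560 CPM (3740 to 3850 CPM), voltage-gated channel and chloride transport genes to 5160 CPM (4610 to 4650 CPM) and fatty acid synthesis genes to 5000 CPM (6380 to 6570 CPM). In WT1, endothelial markers summed to 3.58 CPM (WT2 to WT4 5.96 to 6.42 CPM) and BMP, TGF-beta and YAP targets to 288 CPM (398 to 415 CPM).

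Among the other 6, Ddx3y, a gene of the Y chromosome, stood at 78.9 CPM in KO3 (0 to 0.0497 CPM in the other KO libraries) and at 84.5 CPM in WT4 (0 to 0.0837 CPM). KO4 was highest in deep-layer and subplate neuron markers, at 917 CPM (735 to 741 CPM), and in meningeal fibroblast markers, at 167 CPM (117 to 124 CPM).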

How the results depend on the processing

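The count of 1691 genes set apart in the pair was 2622 without a filter on low counts (78.4% lower) and 2575 within lane A alone (77.3% lower). It fell to 377 after the GC adjustment (62.9% lower) and to 369 with length added (56.4% lower). With a log2 threshold of 0.58 it was 3728, and with 2 it was 162. Leaving out 1 library at a time gave 1603 to 2293, the highest without KO1. The 1245 genes shared by both genotypes were 1113 to 1512 under other scalings and filters.

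The 4 genotype calls with the pair as a term became 9 with lane added, 89 in DESeq2 and 42 without a filter, and 3 to 31 when 1 library was left out (31 without WT3, 8 without KO4). The 3 calls without the pair became 19 in DESeq2 and 10 without a filter, and 2 to 4 when 1 library was left out. The interaction gave 0 calls in each setting run. Replicate numbers did not pair the samples: same-numbered libraries correlated with r = 0.80, 0.01, 0.25 and 0.00, the first being the pair itself. A replicate block gave 3 calls with the pair as a term and 2 without the pair, where Tdg was lost.

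Under the GC adjustment, added after seeing the data, 5 of the genes named by the rule, of which 3 had been set apart, turned from lower to slightly higher: Slc32a1 (0.0249), Cacna2d2 (0.38, and 0.32 with length), Notch3 (0.24 and 0.16), Phlda3 (0.0201 and 0.0849) and Col4a2 (0.00935). Other list members changed sign too. The cause was not tested. Depth limits the scarce genes: those under 1 CPM rest on few counts in the pair.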

Other observations

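Of 21 p53 targets tested 4 were set apart as lower, 6 lay below and 5 above the range of the other 6, with a median log2 difference of 0.14 (adjusted -0.09). Bbc3, which encodes the death factor PUMA, stood at 1.29 CPM in KO1 and 0.854 in WT1, against 3.96, 5.49 and 14.6 CPM in the other 6 (log2 difference -2.58, adjusted -1.38 for GC content). Bax, its mitochondrial effector, stood at 12.6 and 10.8 CPM, against 36.3, 40.3 and 46.1 CPM (log2 difference -1.81, adjusted -0.64). Of 13 genes of axon injury and neuronal death 4 were set apart as lower, 5 lay below the range and none above, with a median of -0.55 (adjusted -0.17). Hrk, a BH3-only gene of neurons on that list, stood at 53.1 and 54.4 CPM, against 98.01, 110 and 127 CPM (log2 difference -1.04, adjusted -0.87).

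Oxidant and BMP response lists also held a few low genes. Of 18 NRF2 targets 4 were set apart as lower, among them heme oxygenase Hmox1 at 4.49 and 2.59 CPM against 6.38, 11.2 and 13.4 CPM (log2 difference -1.51, adjusted -1.15). Id3, a target of BMP signalling, stood at 0.944 and 0.657 CPM against 1.59, 2.44 and 10.8 CPM (log2 difference -2.34, adjusted -1.66). Of 21 hypoxia response genes none was set apart, with 5 above and 5 below the range of the 6 and a median of -0.03.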
